A study of Homo sapiens with 6 samples.

Results

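The 10 genes described here carry out cellular iron uptake, storage, export and sensing, and they were picked by symbol from the 23368 symbols of the deposited count tables. They were TFRC, STEAP3 and SLC11A2 (uptake), FTH1 and FTL (storage), NCOA4 (release from storage), SLC40A1 (export) and ACO1, IREB2 and FBXL5 (sensing). RNA was measured in NB4 cells, an established human line of acute promyelocytic leukemia (APL). Cells were either not treated or exposed to 10 µM maltonis for 24 h, and 3 libraries were sequenced per group. Maltonis, a maltol derivative of the hydroxypyrone class, was given from an aqueous stock, and no vehicle control other than the not treated cells is described in the labels. All libraries came from 1 cell line. The study calls them biological replicates, and the labels do not say how the cultures were separated. The p-values thus weigh group differences against the spread between these libraries only. All 10 genes passed the filter on low counts, as did 13209 genes in all.

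Iron enters most cells bound to transferrin, which the transferrin receptor TFRC carries into endosomes. STEAP3 reduces the iron there, SLC11A2 (DMT1) moves it to the cytosol, ferritin made of FTH1 and FTL chains stores it, NCOA4 takes ferritin to the lysosome for release, and SLC40A1 (ferroportin) exports it. Iron regulatory proteins 1 and 2, encoded by ACO1 and IREB2, bind a hairpin called the iron-responsive element (IRE) when iron is scarce. In a 5′ UTR the bound hairpin blocks translation, whereas in the 3′ UTR of TFRC it protects the transcript from decay. FBXL5 is the iron-sensing subunit of the ubiquitin ligase that removes the IREB2 protein. Much of this control acts on translation or on protein stability, neither of which was measured by these RNA counts.

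Matches to the hairpin pattern are shown first, because they separate the transcripts by the end that carries the match. A hairpin was searched for in the UTRs of RefSeq-linked coding transcripts of GENCODE 29 (GRCh38) as an unpaired C, then 5 bases able to pair with 5 bases beyond a loop of 6, with the loop CAGTGN or CAGAGN and a last base other than G. The loop is in capitals, and each site is 29 bases long, written 5′ to 3′ along the transcript.
FTH1 5′ UTR, chr11:61967574-61967602, minus strand: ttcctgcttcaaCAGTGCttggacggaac
FTL 5′ UTR, chr19:48965335-48965363, plus strand: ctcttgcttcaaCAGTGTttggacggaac
SLC40A1 5′ UTR, chr2:189580661-189580689, minus strand: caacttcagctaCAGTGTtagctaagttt
TFRC 3′ UTR site 1, chr3:196051029-196051057, minus strand: atttatcagtgaCAGAGTtcactataaat
TFRC 3′ UTR site 2, chr3:196050979-196051007, minus strand: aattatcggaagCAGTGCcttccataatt
TFRC 3′ UTR site 3, chr3:196050575-196050603, minus strand: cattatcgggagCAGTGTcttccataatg
TFRC 3′ UTR site 4, chr3:196050510-196050538, minus strand: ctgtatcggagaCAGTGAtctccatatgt
TFRC 3′ UTR site 5, chr3:196050463-196050491, minus strand: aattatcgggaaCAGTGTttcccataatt
STEAP3 3′ UTR, chr2:119263771-119263799, plus strand: ccaaggctcttgCAGAGCtagggctctga

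**Figure D1:**
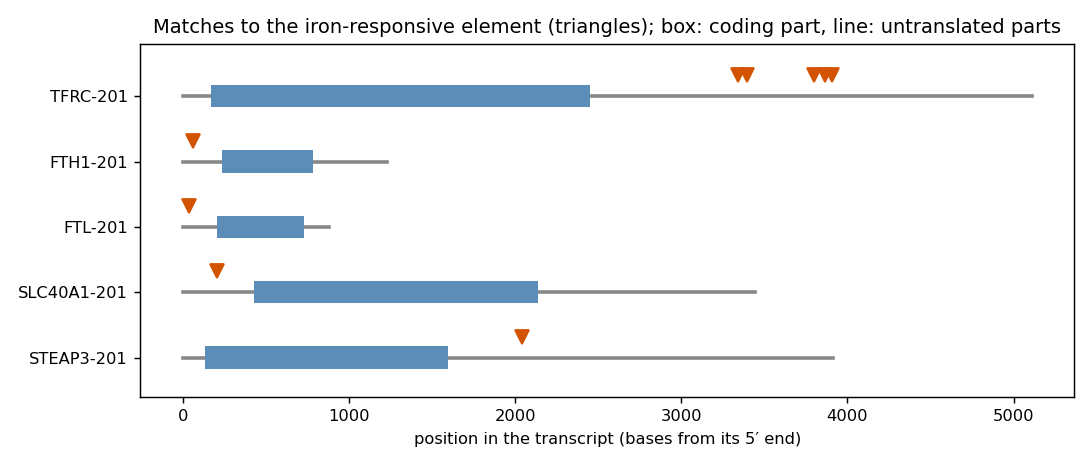
Position of each match to the IRE pattern (triangles) along 1 transcript of each of the 5 genes that hold one, in bases from the 5′ end, with the coding part as a box and the UTRs as a line. The matches of FTH1, FTL and SLC40A1 lie ahead of the coding part and those of TFRC and STEAP3 behind it.

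The pattern was found in 5 of the 10 genes and in 197 of 19041 coding genes (1.03%). With the loop CAGTGN in the 5′ UTR, 17 genes (0.0893%) held a match, and FTH1, FTL and SLC40A1 were 3 of them. TFRC had 5 matches in its 3′ UTR, 4 of them with CAGTGN, a loop that 88 genes (0.462%) held in a 3′ UTR. The STEAP3 match had the loop CAGAGN, was present in 2 of 3 scanned transcripts, and is a match of letters only. No match was found in the scanned transcripts of SLC11A2, ACO1, IREB2, FBXL5 or NCOA4, which says only that these letters and this pairing are not there. It does not show that SLC11A2 or any other of these genes lacks an IRE. The scan also gave no match for EPAS1, PFN2 or HAO1, genes known for an IRE, so the pattern can miss known elements.

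After maltonis, RNA of 2 of the 10 genes was upregulated (FTL and NCOA4) and RNA of 4 was downregulated (SLC40A1, STEAP3, ACO1 and TFRC), while FTH1, SLC11A2, IREB2 and FBXL5 were not called. A gene was called at an adjusted p (FDR) under 0.01 from edgeR's quasi-likelihood test with adjustment over all 13209 genes. The share called was 64.0% over all genes (31.9% higher, 32.1% lower), so 6 called genes of 10 is near the background. The median log2 fold change was −0.14 over the 10 genes and 0.01 over all genes. Past a change of 2.5-fold, 2 of the 10 were lower and 0 were higher, against 10.4% and 9.95% of all genes (20.3% in either direction). The 2 lower genes, SLC40A1 and STEAP3, were at 9.03 and 5.71 RPKM (counts relative to library total and exon length) in not treated cells. For a downregulated gene the study also asks for more than 10 RPKM in those cells, which was not required here. By the RPKM computed here neither gene reaches that level, and the study's own RPKM may differ with the exon length used. At an adjusted p under 0.05, 74.0% of all genes passed, and the same 6 of the 10 iron genes. The libraries of both groups did not overlap for 6 of the 10 genes and for 76.6% of all genes.

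**Figure D2:**
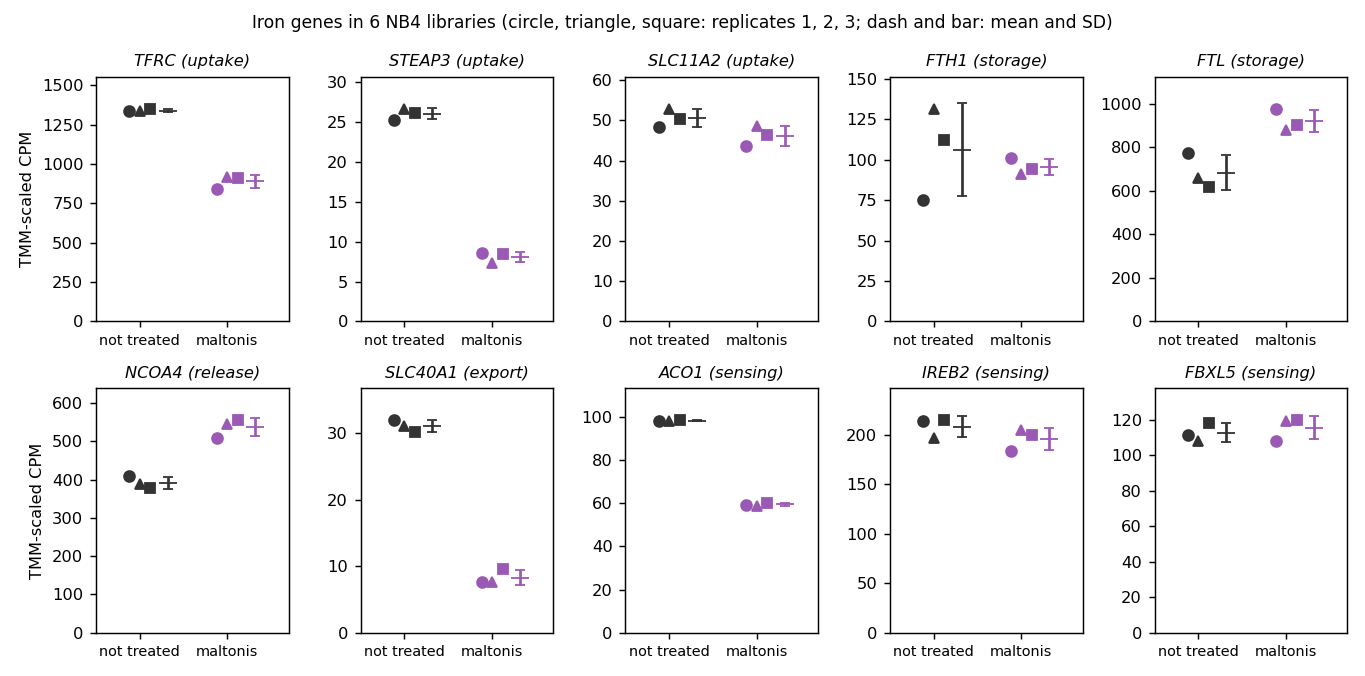
CPM (a gene's counts relative to the TMM-scaled library total) of each of the 10 genes in the 6 libraries, not treated in black and maltonis in purple, with a circle, triangle and square for replicates 1, 2 and 3 and the mean and SD (n = 3) beside them. SLC40A1 and STEAP3 fell the most, TFRC and ACO1 fell less, FTL and NCOA4 rose, and the FTH1 libraries of both groups overlap.

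Among the uptake genes, TFRC and STEAP3 fell and SLC11A2 was not called. TFRC was at 1334, 1334 and 1350 CPM in not treated replicates 1, 2 and 3 and at 844, 915 and 914 CPM after maltonis. Every treated library was below every not treated one, and the means were 1339 ± 8.81 and 891 ± 41.0 CPM (SD, n = 3). TFRC was 1.50-fold lower (log2 fold change −0.59, SE 0.057, adjusted p = 2.0e-05). The replicate 1 libraries of both groups carry another code in their names than replicates 2 and 3, whose meaning is not stated, so differences in log2 CPM are also given within each code. For TFRC they were −0.66 in replicate 1 alone and −0.55 in replicates 2 and 3.

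STEAP3, the endosomal ferrireductase, was at 25.3, 26.6 and 26.1 CPM in not treated cells and at 8.52, 7.31 and 8.41 CPM after maltonis. The groups were far apart, with means of 26.0 ± 0.675 and 8.08 ± 0.671 CPM (SD, n = 3). This was a 3.24-fold fall (log2 fold change −1.69, SE 0.088, adjusted p = 5.1e-07), at −1.56 in replicate 1 and −1.74 in replicates 2 and 3. STEAP3 shares exonic bases with STEAP3-AS1 on the other strand, and whether counting used the strand is not given in the sources used here, so reads of the antisense gene cannot be told apart from those of STEAP3.

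SLC11A2, the endosomal iron transporter, was at 48.4, 52.8 and 50.4 CPM in not treated cells and at 43.6, 48.5 and 46.4 CPM after maltonis. The lowest not treated library was below the highest treated one. The log2 fold change was −0.13 (95% interval −0.29 to 0.03, adjusted p = 0.119), so a fall of the size seen for TFRC lay outside the interval.

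The ferritin chains differed from each other. FTL, the light chain, was at 773, 660 and 616 CPM in the not treated libraries and at 975, 880 and 904 CPM after maltonis. All treated libraries were above all not treated ones, with means of 683 ± 81.2 and 920 ± 49.5 CPM (SD, n = 3). FTL was 1.35-fold higher (log2 fold change 0.43, SE 0.089, adjusted p = 0.00216), at 0.33 in replicate 1 and 0.48 in replicates 2 and 3. Without not treated replicate 2 its log2 fold change was 0.40 and its adjusted p from edgeR was 0.0120, above the threshold of 0.01.

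FTH1, the heavy chain with the ferroxidase activity, was at 75.0, 131 and 112 CPM in not treated cells and at 101, 90.9 and 94.3 CPM after maltonis. Not treated replicate 1 was the lowest of the 6 libraries and not treated replicate 2 the highest, so the treated libraries lay inside the range of the not treated ones. The log2 fold change was −0.16 (SE 0.172, 95% interval −0.55 to 0.24, adjusted p = 0.427). The direction differed between the library codes, at 0.43 in replicate 1 and −0.39 in replicates 2 and 3. Without not treated replicate 1 the log2 fold change was −0.36 (adjusted p = 0.00278), over replicates 2 and 3 of both groups it was −0.40 (adjusted p = 0.000736), and without not treated replicate 2 it was 0.02, all from edgeR. The call and the direction of FTH1 thus depended on which not treated libraries were used.

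The counts of both ferritin genes carry a further limit. GENCODE 29 lists 25 FTH1 and 16 FTL symbols named as pseudogene copies, and 1 of each was in the count tables. The identity of these copies to the parent transcripts was not measured. FTH1P3 held 0.588% to 1.69% of the FTH1 count, and FTLP10 was at 0 in all libraries. How reads shared with the other copies were assigned is not given in the sources used here, and FTH1 also shares exonic bases with BEST1 on the other strand. Adding the pseudogene counts to the parent genes before the fit changed no call of FTH1 or FTL. Counts this small could hardly change one, and the check does not cover the copies absent from the count tables.

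NCOA4, the cargo receptor that takes ferritin to the lysosome, was at 409, 389 and 377 CPM in not treated cells and at 509, 545 and 555 CPM after maltonis. The groups did not overlap, and the means were 391.8 ± 16.1 and 536 ± 23.9 CPM (SD, n = 3). NCOA4 was 1.37-fold higher (log2 fold change 0.45, SE 0.060, adjusted p = 0.000145), at 0.32 in replicate 1 and 0.52 in replicates 2 and 3.

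SLC40A1, the exporter ferroportin, fell the most of the 10 genes. It was at 32.0, 31.1 and 30.2 CPM without treatment, from 600, 1126 and 1003 counts, and at 7.69, 7.58 and 9.55 CPM after maltonis, from 149, 254 and 269 counts. The lowest not treated library was far above the highest treated one, with means of 31.1 ± 0.855 and 8.27 ± 1.11 CPM (SD, n = 3). This was a 3.75-fold fall (log2 fold change −1.91, SE 0.102, adjusted p = 6.0e-07), at −2.04 in replicate 1 and −1.84 in replicates 2 and 3. SLC40A1, FTH1 and FTL carry the same kind of 5′ hairpin, and their RNA differed in direction: SLC40A1 fell, FTL rose and FTH1 was not called.

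Of the sensing genes, ACO1 fell, and neither IREB2 nor FBXL5 was called. ACO1, which serves as a cytosolic aconitase when it holds an iron-sulphur cluster and as iron regulatory protein 1 when it does not, was at 97.9, 98.3 and 98.4 CPM in not treated cells and at 59.3, 58.9 and 60.3 CPM after maltonis. The libraries within each group were close together and the groups apart, at 98.2 ± 0.259 and 59.5 ± 0.740 CPM (SD, n = 3). ACO1 was 1.65-fold lower (log2 fold change −0.72, SE 0.053, adjusted p = 3.7e-06), and the difference was −0.72 in replicate 1 and also in replicates 2 and 3.

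IREB2, iron regulatory protein 2, was at 213, 196 and 214 CPM in not treated cells and at 183, 204 and 200 CPM after maltonis. The groups overlapped, and the log2 fold change was −0.09 (95% interval −0.24 to 0.06, adjusted p = 0.260). Scaling by total counts gave 0.03 instead, a setting that raised the median of all genes by 0.12. FBXL5 was at 112, 108 and 119 CPM in not treated cells and at 108, 119 and 120 CPM after maltonis. The groups overlapped here too, with a log2 fold change of 0.04 (95% interval −0.11 to 0.19, adjusted p = 0.614) that was −0.01 without maltonis replicate 2 or 3.

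**Figure D3:**
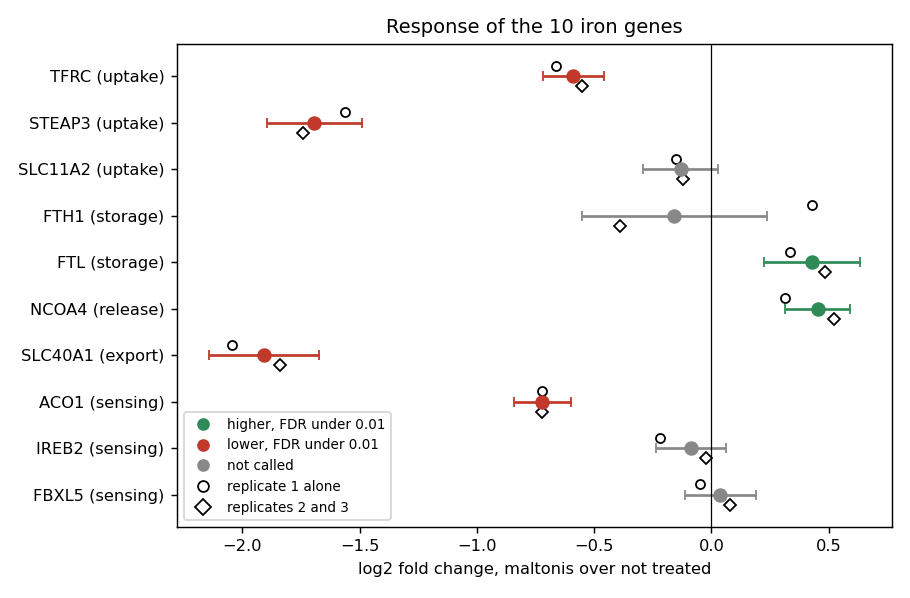
Log2 fold change (maltonis over not treated) of the 10 genes with 95% intervals derived from the edgeR test, coloured by call. The difference in replicate 1 alone is an open circle and that in replicates 2 and 3 an open diamond. The circle and the diamond lie on the same side of 0 for the 6 called genes and on opposite sides for FTH1 and FBXL5.

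Ratios of 2 genes in 1 library do not depend on how libraries are scaled. The ratio of ACO1 to IREB2 counts was 0.459, 0.501 and 0.459 without treatment and 0.324, 0.288 and 0.302 after maltonis. On the log2 scale the group difference was −0.63, and it lay between −0.68 and −0.59 when any 1 library was left out. The ratio of TFRC to FTL, chosen after the counts were seen, was 1.73, 2.02 and 2.19 without treatment and 0.865, 1.04 and 1.01 after maltonis, a log2 difference of −1.02. Both ratios separated the groups, and neither was tested.

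The ratios that involve FTH1 followed its spread. TFRC to FTH1 was 17.8, 10.2 and 12.05 without treatment and 8.35, 10.1 and 9.69 after maltonis, a log2 difference of −0.47 that fell to −0.24 when not treated replicate 1 was left out. FTL to FTH1 was 10.3, 5.02 and 5.50 without treatment and 9.65, 9.69 and 9.58 after maltonis. The treated libraries had an SD of 0.0081 on the log2 scale, whereas not treated replicate 1 stood well above replicates 2 and 3.

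**Figure D4:**
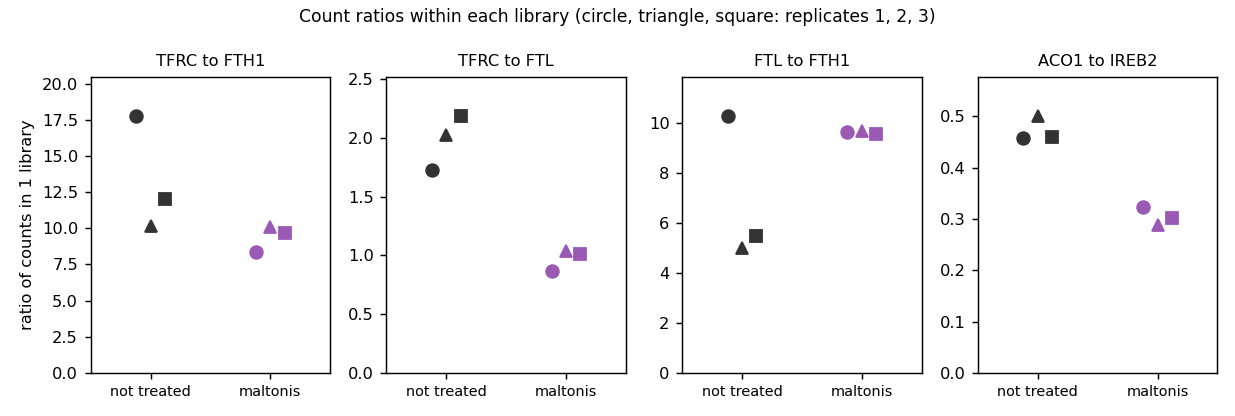
Ratio of the counts of 2 genes in each library, not treated in black and maltonis in purple, with a circle, triangle and square for replicates 1, 2 and 3. The groups are apart for TFRC to FTL and ACO1 to IREB2, nearly touch for TFRC to FTH1 (10.2 and 10.1), and overlap for FTL to FTH1, where not treated replicate 1 is at 10.3.

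Levels of different genes were set side by side only per length, as CPM per kilobase of RefSeq-linked exons (RPKM). Without treatment FTL was highest at 778 ± 92.4 RPKM, followed by TFRC at 252 ± 1.66, NCOA4 at 96.1 ± 3.94 and FTH1 at 86.3 ± 23.3 RPKM (SD, n = 3). The libraries of NCOA4 and FTH1 overlapped, and those of all other neighbours in the order did not. The places of FTH1 and FTL carry the limit given above on reads shared with pseudogenes. FBXL5 (32.3 RPKM), IREB2 (21.9 RPKM) and ACO1 (13.0 RPKM) followed, and the lowest levels were those of SLC40A1 (9.03 RPKM), SLC11A2 (7.47 RPKM) and STEAP3 (5.71 RPKM).

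After maltonis the order was the same except for 1 exchange: SLC11A2 at 6.82 ± 0.364 RPKM was above SLC40A1 at 2.40 ± 0.322 RPKM (SD, n = 3). FTL was at 1048 ± 56.4, TFRC at 167 ± 7.70, NCOA4 at 132 ± 5.87 and STEAP3 at 1.77 ± 0.147 RPKM. No neighbours overlapped in the treated libraries. With the length of all annotated exons, TFRC was at 113 RPKM after maltonis and so below NCOA4, FTH1 was at 52.3 RPKM without treatment, and SLC11A2 at 4.98 RPKM without treatment was below STEAP3 at 5.71 RPKM.

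Promoter windows of 300 bases (RefSeq, GRCh38) were given for 9 of the 10 genes, with 14 windows in all. Both strands were searched for CACGTG, the E-box bound by MYC and other factors, for ACGTG, the core of the hypoxia response element, which overlaps the E-box, and for TGACNNNGC, the core of the antioxidant response element. They occur in 7.20%, 21.4% and 13.3% of 34796 promoter windows. CACGTG was found for FBXL5 only, ACGTG for FBXL5, FTL and TFRC, and TGACNNNGC for FBXL5 and for 1 of the NCOA4 windows. The TFRC match, shown with its surroundings because TFRC is the uptake receptor, begins 88 bases ahead of the start.
TFRC promoter, minus strand: tcgcgagcgtACGTGcctcaggaag

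Other genes that act on iron were described from lists drawn up by role. The 5 lists held 84 genes, of which 67 were tested. Of these, 19 were higher, 25 lower and 23 not called, with a median log2 fold change of −0.19, beside 31.9% higher, 32.1% lower and a median of 0.01 over all genes.

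Of 10 ubiquitin ligase subunits and cluster assembly factors that act on the sensing proteins, NCOA4 or TFRC, 6 were lower and 1 was higher. The share called was 70.0%, near the 64.0% of all genes (32.1% lower), and the median log2 fold change was −0.76. CIAO1, FAM96B, MMS19 and NUBP2 are also counted among the iron-sulphur cluster genes below. FBXL5 works in a ligase with SKP1, CUL1 and RBX1, and all of those partners fell while FBXL5 was not called. CUL1, the scaffold, went from 196 ± 12.6 to 81.0 ± 3.51 CPM (SD, n = 3; log2 fold change −1.27, adjusted p = 5.7e-07) and SKP1, the adaptor, had a log2 fold change of −0.84 (adjusted p = 6.9e-05). FAM96A (CIAO2A), a factor that matures the iron-sulphur cluster of ACO1, fell from 105 ± 8.96 to 32.0 ± 1.25 CPM (log2 fold change −1.72, adjusted p = 2.7e-07). HERC2, a ligase that acts on NCOA4 and FBXL5 protein, was the gene that rose (log2 fold change 0.46, adjusted p = 0.00208), a call lost at log2 fold changes of 0.41 to 0.45 without not treated replicate 2 or any 1 of the maltonis replicates.

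Of 32 further genes of iron and haem carriage, 18 were tested, 5 were higher and 4 lower, and the median log2 fold change was −0.08. Without not treated replicate 1, 8 were higher. HFE, a membrane protein that binds TFRC and competes with transferrin, had 4, 8 and 9 counts without treatment and 437, 927 and 765 counts after maltonis (log2 fold change 6.74, SE 0.171, adjusted p = 2.4e-08). MCOLN1, a lysosomal cation channel that lets iron out, rose from 4.47 ± 0.757 to 16.7 ± 2.94 CPM (log2 fold change 1.89). PCBP3, of the family that holds the iron chaperones, rose from 1.29 ± 0.382 to 6.0 ± 0.035 CPM (log2 fold change 2.15). PCBP1, PCBP2 and PCBP4 of that family, also named after their values were seen, were not called (log2 fold changes −0.06, −0.14 and −0.53). Without treatment PCBP1 and PCBP2 were at 150 and 149 CPM. Of genes that bring iron in by routes other than TFRC, SLC39A14, a transporter of iron not bound to transferrin, went from 178 ± 8.86 to 61.2 ± 1.64 CPM (log2 fold change −1.54), and CYBRD1, a ferrireductase of the plasma membrane, from 78.0 ± 0.488 to 34.5 ± 0.508 CPM (log2 fold change −1.18). In the same list and named after their values were seen, TFR2, the other transferrin receptor, rose from 25, 57 and 46 to 94, 107 and 91 counts (log2 fold change 1.35, adjusted p = 0.000338), and SLC39A8, a transporter related to SLC39A14, was not called (log2 fold change −0.19, adjusted p = 0.0156). SLC25A39, a mitochondrial carrier, fell 8.29-fold (log2 fold change −3.05). The adjusted p from edgeR was 1.1e-05 or smaller for HFE, MCOLN1, PCBP3, SLC39A14, CYBRD1 and SLC25A39.

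Of the other 7 genes known for an IRE, 4 were tested. CDC14A fell (log2 fold change −0.98, adjusted p = 1.0e-05), EPAS1 rose from 3, 12 and 4 counts to 34, 39 and 28 counts (log2 fold change 2.53, adjusted p = 0.000372), and CDC42BPA was not called. Scaling by total counts or by upper quartile gave 2 higher genes instead of 1.

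Of 26 iron-sulphur cluster assembly genes, 9 were higher and 10 lower (median log2 fold change −0.21). Called genes made up 73.1% of them, against 64.0% of all genes (31.9% higher, 32.1% lower). The falls were led by BOLA3, a mitochondrial assembly factor, from 30.6 ± 2.03 to 0.657 ± 0.0269 CPM (SD, n = 3; log2 fold change −5.54, adjusted p = 1.9e-08). LYRM4, a partner of the sulphur donor NFS1, fell as well (log2 fold change −1.19). HSCB, a co-chaperone of cluster transfer (1.60), NARFL (CIAO3, 1.50) of the cytosolic pathway and FDXR, ferredoxin reductase (1.46), rose on the log2 scale.

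Of 14 haem genes, 13 were tested, 3 were higher and 6 lower (median log2 fold change −0.25). Called genes made up 69.2% of those tested, against 64.0% of all genes. CPOX, of haem synthesis, fell from 60.3 ± 3.59 to 7.30 ± 0.229 CPM (log2 fold change −3.05), and FECH, which inserts iron into the ring, fell from 21.0 ± 1.59 to 3.69 ± 0.513 CPM (log2 fold change −2.49), while PPOX, which acts between them, rose (log2 fold change 0.98). HMOX1, which opens haem and frees its iron, was at 2.02, 2.37 and 2.56 CPM in not treated cells and at 49.4, 44.5 and 45.8 CPM after maltonis (log2 fold change 4.30, adjusted p = 2.0e-08). Of the biliverdin reductases, BLVRB rose (log2 fold change 1.54) and BLVRA fell (log2 fold change −2.06, from 2.21 ± 0.244 to 0.520 ± 0.349 CPM).

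**Figure D5:**
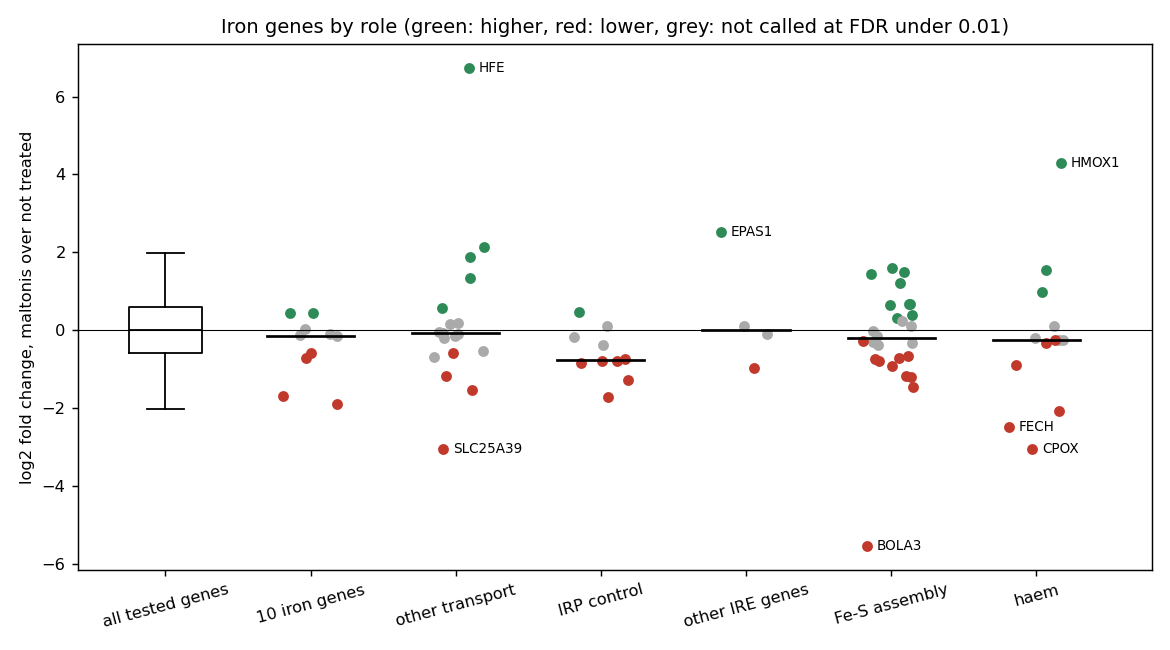
Log2 fold change (maltonis over not treated) of each tested gene by role, with a bar at the median of each list and a box for all 13209 genes (quartiles, whiskers at percentiles 5 and 95). The medians of the 10 iron genes and of the 5 lists lie between −0.76 and 0.01, with HFE at 6.74 and BOLA3 at −5.54.

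The genes whose log2 CPM followed a changed iron gene most closely over the 6 libraries were HLTF, TMEM206 and SMG8 for NCOA4 (Pearson r of 0.999) and MRPL40, DCLRE1A and HEATR5A for SLC40A1 (r of 1.00). These values share the split into groups and the library depths, and 2352 genes had an r over 0.95 with NCOA4 and 3065 with SLC40A1, so they describe the pattern only.

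The libraries held 18492154 to 38205483 counts, and 3 counts correspond to 0.0828 to 0.160 CPM, far below each of the 10 genes. As bulk RNA, the data cannot tell fewer cells of a type from less RNA per cell. The 9 promyelocyte markers were all detected, 3 higher, 5 lower and 1 not called (88.9% called, against 64.0% of all genes). Their summed level, mostly MPO (log2 fold change −0.98), was 14202 to 16626 CPM without treatment and 8805 to 9301 CPM after maltonis. On the log2 scale CEBPA (−0.96), CEBPE (−0.95), SPI1 (−0.62) and CD33 (−0.51) fell as well. By contrast, CTSG (2.34), AZU1 (0.48) and ELANE (7.07, from 2 to 6 counts in the not treated libraries) rose on the log2 scale. Of 12 red cell precursor markers, 9 were at 3 counts or fewer in every library, haemoglobin and glycophorin genes among them, and the sum was 7.08 to 8.50 and 9.04 to 11.9 CPM, with EPOR higher (log2 fold change 1.16) and GATA1 lower (log2 fold change −1.96). Lymphoid markers, mostly CD3D, summed to 45.5 to 48.8 and 16.1 to 17.1 CPM, and macrophage markers to 21.7 to 24.4 and 21.4 to 25.3 CPM. The part of these shifts in the iron gene results was not tested.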

How the data were processed

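The authors deposited 1 table of whole-number HTSeq counts per library, the reads on each gene symbol without normalization, from stranded, rRNA-depleted total RNA. The submitters' processing notes also name TopHat, Bowtie2 and the hg19 build. Versions, annotation and strand setting are not given in the sources used here. Counts were fitted in R 4.3.3 with edgeR 4.0.16 (TMM, filterByExpr, quasi-likelihood test, no covariates, Benjamini-Hochberg adjustment over 13209 genes), after the study's use of edgeR and of an FDR under 0.01 and 2.5-fold change; its further criterion on RPKM was not applied. CPM values were scaled by TMM. The 10 genes and all lists were chosen with earlier results of these data known. Named genes are the 10 genes, HMOX1, up to 3 largest increases and decreases among called genes of each list, and the 3 genes most like the called member with the largest rise and that with the largest fall, apart from items that are not reported here. Replicate libraries differed by more than sampling noise (chi-square per degree of freedom 4.33 to 35.0). Simulated counts took the means of the not treated libraries, and 200 genes were changed. The fit recovered 66.2%, 91.5% and 100% of changes of 1.5-, 2- and 4-fold among 12712 genes, with 6 false calls. In the data 64.0% of genes were called, so these shares may not hold there. Alternatives covered scaling, test (DESeq2 1.42.0, likelihood ratio), filter, replicate block, library code, exon length, pseudogene counts and each library left out.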

Additional observations from a re-analysis of the deposited data

How the results depend on the processing

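With any 1 library left out, 1 to 2 of the 10 iron genes were higher and 4 to 5 lower, and of the called ones FTL alone lost its call (without not treated replicate 2). The calls of 5 of the 6 called iron genes, and of 34 of the 36 called genes named here, held in direction and threshold under every alternative fitted. With the 2.5-fold criterion, 0 of the 10 were higher and 2 lower. In the leave-one-out fits the carriage genes had 5 to 8 higher, and those acting on the sensing proteins, NCOA4 or TFRC 0 to 1 higher (HERC2). Without the filter on low counts 8 carriage genes were higher, and 2 of the other IRE genes were higher with total counts or upper quartile. IREB2 had a log2 fold change of 0.032 with total counts and 0.00045 with upper quartile, FBXL5 had −0.012 to 0.070 and FTH1 −0.36 to 0.018 with any 1 library left out. The cause was not tested. Same-numbered libraries had correlated deviations of 0.301, 0.0852 and 0.161, so the numbers were not taken as pairs. With the number as a replicate block, 2 of the 10 iron genes were higher and 4 lower, and 4602 and 4620 of all genes against 4213 and 4239. Of the 4 iron genes not called, FTH1 had the widest interval (−0.55 to 0.24).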

Other observations

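HFE lies among histone genes in GENCODE 29, and its neighbours were looked at after its values were seen. HIST1H1T went from 23, 55 and 49 counts without treatment to 1322, 2726 and 2438 counts after maltonis (log2 fold change 5.78, adjusted p = 2.0e-08 from edgeR), a change of the same direction as that of HFE. HIST1H1C, next to HFE on the other side from HIST1H4C, rose from 1103 ± 78.8 to 1741 ± 154 CPM (SD, n = 3; log2 fold change 0.66, adjusted p = 9.7e-05). HIST1H4C (log2 fold change 0.54, adjusted p = 0.0208) and HIST1H2BC (−0.27, adjusted p = 0.0299) were not called at an adjusted p under 0.01.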
